A study of Mus musculus with 24 samples.

Results

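The epithelial keratins examined here are Krt20, Krt23, Krt19, Krt18, Krt8 and Krt7, and the data are binding peaks near these 6 genes of Cdx2, the homeobox factor that sets intestinal identity. A peak was counted when its summit lay in a gene body or within 20 kb to either side (GENCODE vM21 annotation, genome build mm10, the same assembly as GRCm38). Across 12 peak lists, 128 peaks met this rule. Overlapping peaks of different lists were merged, which gave 20 regions in the keratin windows out of 61454 regions genome-wide. Of the 20 regions, 16 were listed in at least 2 libraries, 4 in a single library and 3 in all 12.

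Keratins are the intermediate filament proteins of epithelial cells. A filament is built from pairs of an acidic type I keratin and a basic type II keratin. Krt18, Krt19, Krt20 and Krt23 are type I, and Krt7 and Krt8 are type II. Krt8 and Krt18 form the basic filament network of simple epithelia, Krt19 is widespread in glandular and colonic epithelium, and Krt20 is known for differentiated cells of the upper intestinal crypt and the surface. Cdx2 binds regulatory DNA through its homeodomain, which reads AT-rich words such as TTTATTA.

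The libraries came from normal colon organoids, which are epithelial cultures grown in Matrigel. Donors were female mice of 8 weeks that carried 1 copy of Cre-inducible BrafV600E and 1 copy of a tdTomato reporter in every group, and no Cre treatment is stated for these cultures. Organoids of the proximal and the distal colon were derived from 3 mice and grown for 4 months with WENR-plus medium. It supplies Wnt3a, EGF, Noggin and R-spondin. The WENR-plus groups stayed in that medium, whereas the WENR-minus groups had 2 days in it after plating and then 3 days without the niche factors. Site and medium together made 4 groups with 3 Cdx2 libraries each, numbered 1 to 3, and the 12 matched inputs served only as controls of the authors' peak calling. The labels do not say which number belongs to which mouse, so p-values measure the spread between these libraries. Peak lists hold no expression, so the cell type could not be checked by marker genes.

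The lists held 5608 to 42192 peaks on the assembled chromosomes, with 13592 to 42192 in proximal WENR-plus and 5608 to 13371 in distal WENR-plus. They give no read totals, so the depth behind each peak is not known from them. The study's reporting summary gives aligned reads per library, which were not used here. In it every distal WENR-plus library had fewer uniquely aligned reads than any Cdx2 library of the other groups. The fold enrichment used below is the authors' ratio of signal at a summit to the background from the input. Its percentile is the share of peaks in the same list with an equal or lower fold enrichment.

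The sequences below are the 101 bases centred on the median summit of the 3 regions listed in all 12 libraries and, for Krt23, Krt8 and Krt18, of the region listed in the most libraries. They are shown because the comparisons turn on them. All are from the GRCm38 reference, plus strand, and capitals mark the words TTTATGA or TTTATGG or TTTATTA or TTTATTG, or a reverse complement, which stand for the Cdx2 motif.
Krt20 intron, chr11:99436849-99436949: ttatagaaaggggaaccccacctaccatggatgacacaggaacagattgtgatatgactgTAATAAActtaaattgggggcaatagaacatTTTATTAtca
Krt19 upstream, near, chr11:100151170-100151270: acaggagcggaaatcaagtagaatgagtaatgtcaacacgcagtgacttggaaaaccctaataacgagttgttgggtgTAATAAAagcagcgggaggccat
Krt19 upstream, far, chr11:100159668-100159768: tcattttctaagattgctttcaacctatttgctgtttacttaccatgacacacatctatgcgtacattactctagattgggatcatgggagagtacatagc
Krt23 intron, chr11:99489304-99489404: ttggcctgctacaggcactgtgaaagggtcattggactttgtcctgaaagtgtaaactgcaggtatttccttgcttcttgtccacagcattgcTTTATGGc
Krt8 and Krt18 shared, chr15:102009404-102009504: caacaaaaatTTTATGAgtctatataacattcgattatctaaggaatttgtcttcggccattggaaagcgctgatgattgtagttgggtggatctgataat

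The Krt20 intron window held 2 copies of the motif, centred 13 bp and 44 bp from the median summit, and each of the 12 library summits there had a copy within 50 bp. At the near Krt19 region 8 of 12 summits had one. The far Krt19 region had none around its median summit, and 3 of its 12 library summits had one within 50 bp. For Krt23 the count was 7 of 10 summits, and for the region shared by Krt8 and Krt18 it was 3 of 11. Among the 16 keratin regions listed in at least 2 libraries, 7 (43.8%, exact 95% interval 19.8% to 70.1%, counting error only) had the motif within 50 bp of the median summit, against 66.8% of all 35518 such regions and 11.3% of windows of the same length placed 1000 bp away. The interval of the keratin share includes the share of all regions. With 100 bp to each side the count was 11 of 16, against 83.3% of all regions.

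Words for other factors of the gut epithelium were rarer in the same windows. The HNF4 word CAAAGNNCA occurred in 1 of 16 keratin regions, at Krt23, against 5.01% of all regions. The GATA word AGATAA occurred in 2 of 16 against 10.2%, and the AP-1 word TGANTCA in 2 of 16 against 7.47%. Both strands were searched, no word contains another, and a match is a string of letters rather than a measured site.

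Keratin peaks lay in introns or between genes, and none covered a start site. The study counts the area within 3 kb of a start site as promoter. By that rule the Krt20 intron region, the near Krt19 region and a region of 1 library in Krt8 intron 1 are promoter regions. The closest summit of any library to a Krt20 start site was 1186 bp away, and no listed peak reached closer than 719 bp to a start site of any of the 6 genes. Krt20 (chr11:99428403-99438150, minus strand) had 3 regions, and the leading one (chr11:99436310-99437431) lay in intron 1 of 7, with its median summit 1251 bp downstream of the start site. Krt23 (chr11:99477974-99493137, minus strand) had 1 region (chr11:99488971-99489595), also in intron 1 of 7 and 3783 bp downstream. Krt19 (chr11:100140810-100148665, minus strand) had 8 regions, all upstream and intergenic, of which those at 2555 bp (chr11:100150835-100151603) and 11053 bp (chr11:100159432-100160175) were listed in all 12 libraries.

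On chromosome 15 the neighbours Krt8 (chr15:101996698-102004482, minus strand) and Krt18 (chr15:102028180-102032027, plus strand) are transcribed away from each other, and their windows overlap. Krt8 had 6 regions and Krt18 had 5, with 3 regions counted in both windows. None of them was listed in all 12 libraries. The shared region listed most often (chr15:102009102-102009631, intergenic) lay 4972 bp upstream of Krt8 and appeared in 11 libraries. The remaining frequent regions lay beyond the outer sides of the pair, at 9750 bp and 13303 bp downstream of the Krt8 start site and at 11317 bp downstream of the Krt18 start site. Those downstream of Krt8 are slightly nearer to the start site of the lincRNA Gm36026, at 9480 bp and 13033 bp.

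Krt7 (chr15:101411043-101430313, plus strand) had no peak of any library in its window, and the nearest listed peak lay 79076 bp from a Krt7 start site. Windows without a peak are common, since 33.6% of 21938 protein-coding genes had none. A region listed in all 12 libraries was rarer, with 3.38% of all regions and 7.72% of protein-coding windows, whereas Krt20 and Krt19 were 2 of the 6 members with one. Krt19 was 1 of 278 protein-coding genes with at least 2 such regions, and 1 of 1089 with at least 8 regions of any kind.

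**Figure D1:**
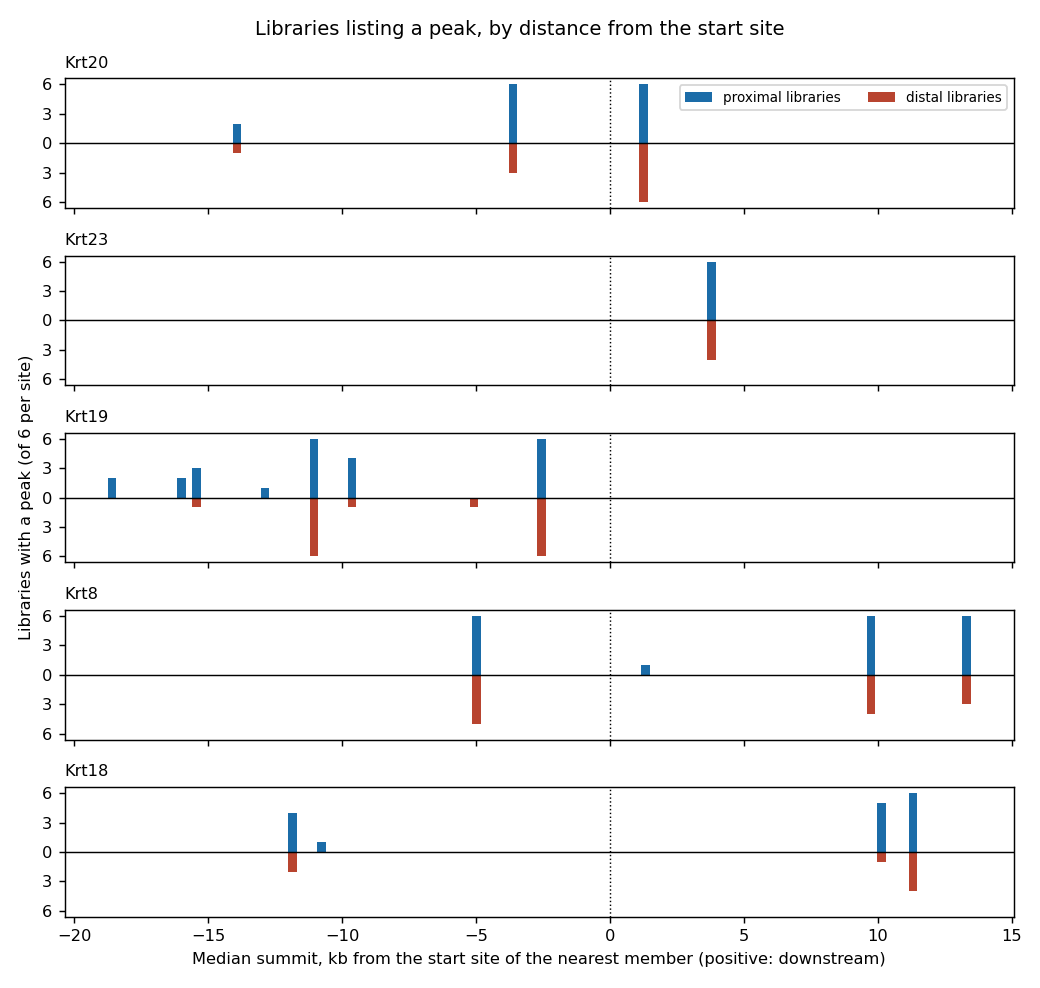
Number of libraries with a listed Cdx2 peak (bars up: of 6 proximal libraries, bars down: of 6 distal libraries) against the distance in kb of the region's median summit from the start site of the nearest member, positive values lying downstream. The Krt20 region 1.25 kb downstream and the Krt19 regions 2.56 kb and 11.1 kb upstream reach 6 on both sides, and Krt7 has no region to draw.

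The intron region of Krt20 was among the strongest Cdx2 peaks of most lists. Its percentile was 98.9 in the median over the 12 libraries and ranged from 68.2 to 99.8. By this median it ranked 122nd among the 2079 regions listed in all 12 libraries, with 94.1% of them lower. The far Krt19 region had a median percentile of 90.3 (51.4 to 98.1) and the near one of 82.0 (40.9 to 96.3), beside a median of 88.6 over the 2079 regions. Thus 55.5% of the shared regions were lower than the far Krt19 region and 31.1% were lower than the near one.

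In proximal WENR-plus organoids the fold enrichment at the Krt20 intron was 23.8, 21.3 and 19.5 in replicates 1 to 3. In proximal WENR-minus it was 27.9, 25.5 and 23.7, so every WENR-minus value but the lowest exceeded all WENR-plus values of the same site. In distal WENR-plus it was 7.40, 9.29 and 12.8. These were the 3 lowest of all 12 values. In distal WENR-minus it was 25.8, 18.9 and 20.6, and the distal groups did not overlap. By rank, the region was peak 51 of 21040, 57 of 7895 and 73 of 7904 in distal WENR-minus, but 2344 of 7378, 2041 of 13371 and 313 of 5608 in distal WENR-plus. Peaks were 756 to 1066 bp wide in the former and 416 to 511 bp wide in the latter.

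For comparisons between groups, the log2 fold enrichment was centred on each library's median over the 2079 shared regions. On this centred scale the Krt20 intron stood at 1.32 ± 0.12 (SD, n = 3) in distal WENR-minus, 1.27 ± 0.08 in proximal WENR-minus, 0.80 ± 0.15 in proximal WENR-plus and 0.11 ± 0.41 in distal WENR-plus. The medium comparison in distal organoids gave a difference of -1.21 (WENR-plus minus WENR-minus, SE 0.22, 95% interval -1.68 to -0.74), which is a 2.31-fold higher enrichment in WENR-minus. Its unadjusted p of 5.25e-05 was the lowest of the 2079 regions. It did not pass after adjustment over them (limma, Benjamini-Hochberg adjusted p = 0.0986). The adjusted p was 0.0210 with the replicate number as a block, although the labels do not tie the numbers to mice. It was 0.0342 after quantile normalization and 0.0227 without the libraries numbered 3, which include the distal WENR-plus library with the highest value (12.8), and it was 0.699 without those numbered 1 and 0.518 without those numbered 2. Fewer cells with Cdx2 at this intron and less Cdx2 per cell cannot be told apart in bulk chromatin.

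The lists of these distal libraries differed in length, with 5608 to 13371 peaks in WENR-plus and 7895 to 21040 in WENR-minus. The percentile of the Krt20 intron was 68.2, 84.7 and 94.4 in WENR-plus and 99.8, 99.3 and 99.1 in WENR-minus. A limma fit on these percentiles gave a difference of -16.9 points (WENR-plus minus WENR-minus, adjusted p = 0.290). The part of list length or of sequencing depth in the difference was not tested.

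The remaining comparisons at the Krt20 intron were smaller. In proximal organoids the medium difference was -0.47 (95% interval -0.95 to 0.00017, adjusted p = 0.565), and the groups did not overlap on the centred scale. Proximal exceeded distal by 0.69 in WENR-plus (0.21 to 1.16, adjusted p = 0.0791), and that adjusted p was 0.0470 with the replicate block, 0.492 and 0.458 without the libraries numbered 1 and 2, and 0.0452 without those numbered 3. In WENR-minus the sites differed by -0.05 (-0.52 to 0.42, adjusted p = 0.935). In the order of levels, distal and proximal WENR-minus were thus not separable, and neither of the next steps passed the adjusted threshold. The medium effect itself differed between sites by 0.74 (0.07 to 1.41, unadjusted p = 0.0331, limma adjusted p = 0.998). Without the libraries numbered 1 that value was 0.44 (-0.51 to 1.40, unadjusted p = 0.332).

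The Krt19 regions did not share this order. At the far region the fold enrichment was 14.7, 14.8 and 22.9 in proximal WENR-plus and 13.4, 11.7 and 10.1 in proximal WENR-minus. The distal libraries gave 6.57, 15.5 and 10.4 with WENR-plus and 8.54, 7.75 and 8.61 with WENR-minus. Both WENR-plus groups spread widely, with the highest value of all in proximal replicate 3 and the lowest in distal replicate 1. At the near region the values were 12.4, 12.2 and 18.4 in proximal WENR-plus and 12.1, 7.08 and 7.03 in proximal WENR-minus. Distal values there were 7.93, 9.33 and 5.97 in WENR-plus and 8.07, 5.92 and 7.69 in WENR-minus. The 3 proximal WENR-plus values were the highest of the 12 before centring, and the other 3 groups overlapped. On the centred scale the proximal WENR-plus values were 0.02, -0.11 and 0.65. There they overlapped those of proximal WENR-minus and distal WENR-plus.

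On the centred scale, WENR-plus exceeded WENR-minus in proximal organoids by 0.52 at the near Krt19 region (95% interval 0.0013 to 1.04, unadjusted p = 0.0495, limma adjusted p = 0.565) and by 0.33 at the far one (-0.20 to 0.87, adjusted p = 0.793). The sign was opposite to that of the Krt20 intron (-0.47). In distal organoids the medium differences were 0.05 (-0.46 to 0.57) and 0.26 (-0.28 to 0.80). Proximal minus distal was 0.41 (-0.11 to 0.92) and 0.27 (-0.27 to 0.81) in WENR-plus, and -0.06 (-0.58 to 0.46) and 0.20 (-0.34 to 0.73) in WENR-minus. Most of these Krt19 values moved by over 1.5 times when single replicate numbers were left out. Without the libraries numbered 3, the proximal medium differences were 0.20 (near, unadjusted p = 0.440) and 0.03 (far), and the site differences in WENR-plus were 0.03 and 0.06. Over the leave-outs these ranged up to 0.77 and 0.53, and to 0.60 and 0.61. The distal medium difference of the far region ranged from 0.08 to 0.46. As a description over the 12 libraries, the profiles of both Krt19 regions had a Pearson r of 0.55 with each other, and of -0.28 (near) and -0.25 (far) with the Krt20 intron.

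**Figure D2:**
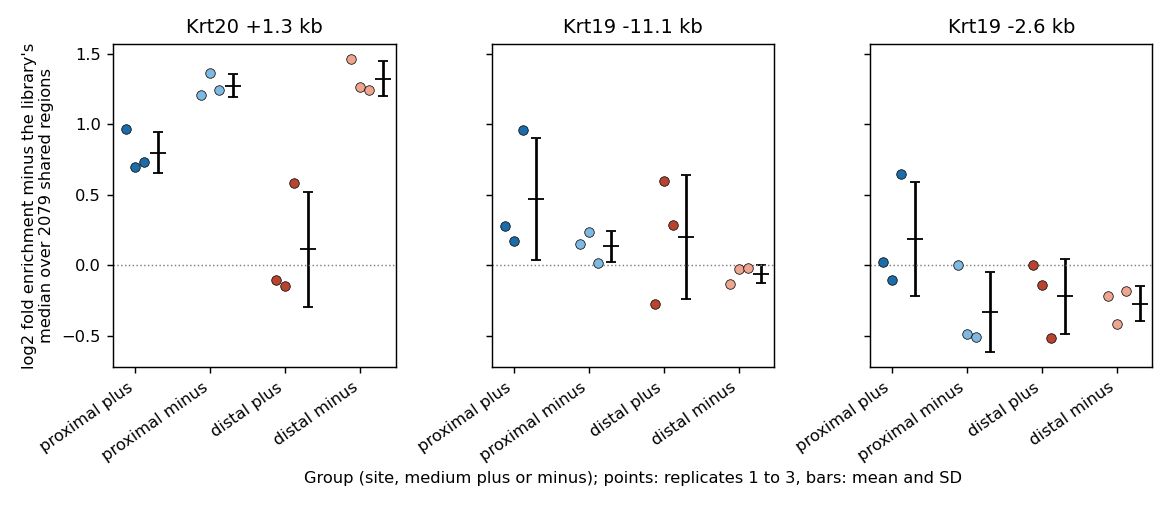
Centred log2 fold enrichment (log2 fold enrichment minus the library's median over the 2079 shared regions) of the 3 keratin regions listed in every library, with points for replicates 1 to 3 of each group and bars for the mean and SD. The distal WENR-plus points of the Krt20 intron average 0.11, below the other groups at 0.80, 1.27 and 1.32, whereas the Krt19 groups overlap more.

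Over the 3 keratin regions, limma called 0 in each of the 4 comparisons. Genome-wide, 129 of 2079 regions (6.2%) were called between sites in WENR-plus and 62 (2.98%) between sites in WENR-minus, while the medium comparisons called 0 (0%) in proximal and 0 (0%) in distal organoids. At an unadjusted p under 0.05 there were 1, 0, 1 and 1 keratin regions in the same order (447, 394, 181 and 223 of all), the Krt20 intron in WENR-plus between sites and in distal organoids between media, and the near Krt19 region in proximal organoids. Without the libraries numbered 1, or without those numbered 2, 0 regions were called between sites in either medium. In each comparison 1 of the 3 keratin regions had groups that did not overlap, against 24.8% and 24.5% of all shared regions between sites (WENR-plus and WENR-minus) and 13.9% and 16.2% between media (proximal and distal). This region was the Krt20 intron in all comparisons but the site comparison in WENR-minus, where it was the far Krt19 region. The medians of the 3 keratin differences were 0.41, -0.05, 0.33 and 0.05, beside medians of -0.02, -0.0005, -0.03 and 0.009 over all regions. With regions of at least 10 libraries, 7 keratin regions were fitted and 0 were called. Of all 4550 regions, 153 were called between sites in WENR-plus, 121 between sites in WENR-minus and 0 in either medium comparison. Between sites in WENR-minus, 2 keratin regions had an unadjusted p under 0.05, beside 774 of all 4550. Proximal minus distal was 0.79 at 11317 bp downstream of Krt18 (unadjusted p = 0.0214, limma adjusted p = 0.202). There the distal WENR-minus side rested on 2 libraries (fold enrichment 3.94 and 4.95), as replicate 1 had no listed peak. At the region shared by Krt8 and Krt18, proximal minus distal was -0.62 (unadjusted p = 0.0311, limma adjusted p = 0.246).

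**Figure D3:**
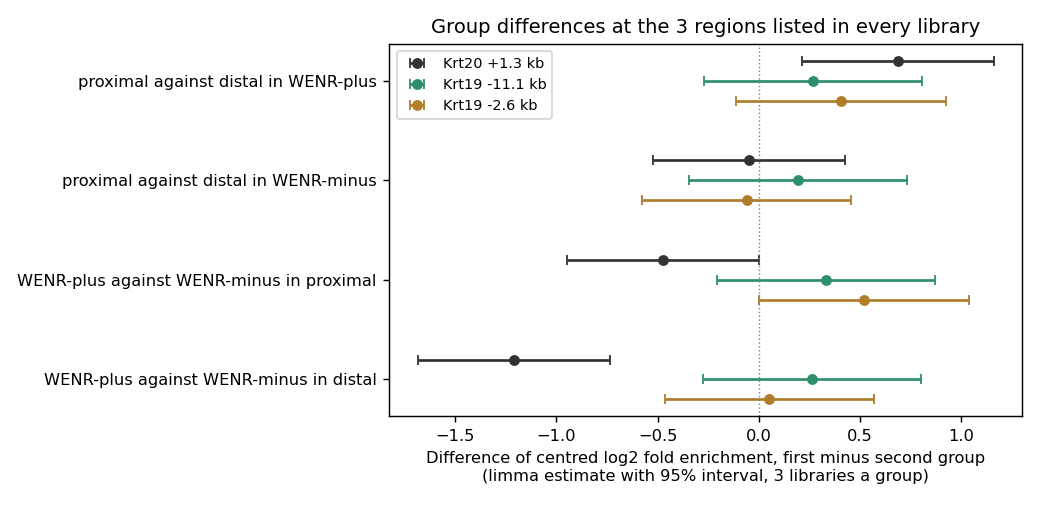
Differences of centred log2 fold enrichment between groups (first minus second, limma estimate with 95% interval) at the 3 keratin regions listed in all 12 libraries, for the 4 comparisons. The Krt20 intron lies at -1.21 in the distal medium comparison, with an interval of -1.68 to -0.74, and both Krt19 regions lie above 0 in each medium comparison.

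The regions of Krt23, Krt8 and Krt18 were missing from some lists, most often distal ones. The Krt23 region (median percentile 73.4) and the region shared by Krt8 and Krt18 were weaker than the Krt20 intron and both Krt19 regions by median percentile. The region 11317 bp downstream of the Krt18 start site had a median fold enrichment of 8.37 over its 10 libraries. That was above the median of the near Krt19 region, although its median percentile was lower. At Krt23 the fold enrichment was 8.56, 9.09 and 9.34 in proximal WENR-plus and 9.94, 8.49 and 6.37 in proximal WENR-minus. It was 5.33 and 6.75 in distal WENR-plus replicates 2 and 3, and 4.52 and 6.99 in distal WENR-minus replicates 1 and 3. The missing libraries were distal WENR-plus 1 and distal WENR-minus 2, with lists of 7378 and 7895 peaks. The region shared by Krt8 and Krt18 had 6.53, 5.93 and 6.26 in proximal WENR-plus but 3.20, 3.63 and 5.69 in proximal WENR-minus. In distal WENR-minus it had 4.96, 4.93 and 5.31, and in distal WENR-plus 7.55 and 5.28, with no peak in replicate 1. Its median percentile was 42.3. With lists of equal length it was kept in 5 libraries, 1 proximal and 4 distal, so its site order turned. The Krt23 region was then kept in 6 proximal and 2 distal libraries.

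The other regions of the pair were listed less often, with median percentiles above and below that of the shared one. The region 11317 bp downstream of the Krt18 start site was listed in 10 libraries with a median percentile of 80.2 (4.28 to 95.03), and the one 9750 bp downstream of the Krt8 start site in 10 libraries with 76.1 (38.0 to 91.8). With lists of equal length these were kept in 5 proximal and 3 distal libraries, and in 4 proximal and 3 distal libraries. The region 13303 bp downstream of the Krt8 start site was listed in 9 libraries (median percentile 61.5). With lists of equal length it was kept in 1 proximal and 3 distal libraries. The region 10132 bp downstream of Krt18 was listed in 6 libraries (38.1) and that 11842 bp upstream of Krt18 in 6 (41.6). The Krt20 region 3623 bp upstream was listed in all 6 proximal and 3 of 6 distal libraries, with a fold enrichment of 4.70 to 9.19. The Krt20 region 13923 bp upstream appeared in 3 libraries. At Krt19, regions 9634, 15440, 15991 and 18585 bp upstream appeared in 5, 4, 2 and 2 libraries. Regions of a single library lay 5075 and 12886 bp upstream of Krt19, in Krt8 intron 1, and 10767 bp upstream of Krt18.

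**Figure D4:**
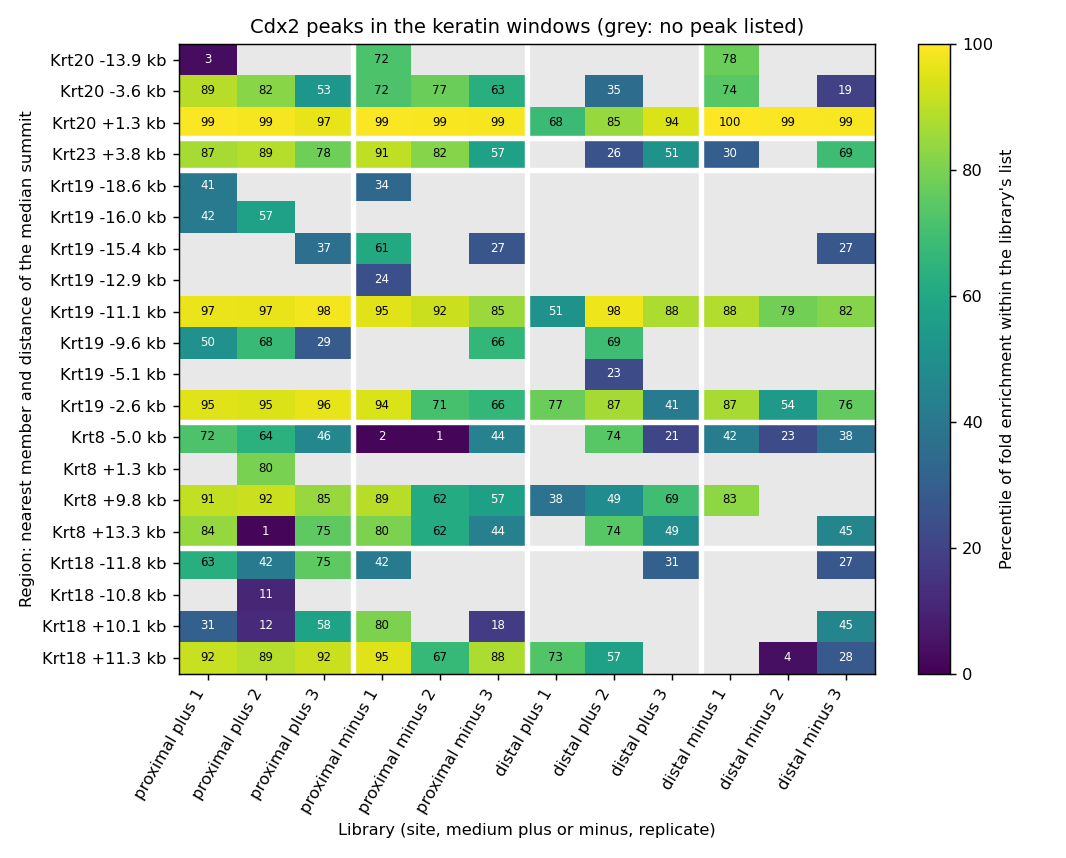
Percentile of fold enrichment within each library's own list for the 20 keratin regions (rows, named by the nearest member and the distance in kb of the median summit from its start site) in the 12 libraries (columns), with grey where no peak was listed. The Krt20 intron row is at 96.7 or above in 9 libraries and at 68.2, 84.7 and 94.4 in distal WENR-plus, and grey cells are most frequent in the 6 distal columns.

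By site, 13 of the 16 keratin regions were listed in more proximal than distal libraries, 0 in fewer and 3 in equally many. Genome-wide 76.3% of 35518 regions were listed in more proximal libraries, so the keratin share is near the background. By medium, 5 were listed in more WENR-plus libraries, 4 in fewer and 7 in equally many, beside 39.5% of all regions with more WENR-plus libraries. Fisher's exact test, 6 against 6 libraries, called 0 keratin regions and 0 of all regions (0% by site and 0% by medium) after adjustment, and 0 keratin regions at an unadjusted p under 0.05 (1861 and 67 of all). The 6 libraries of each side came from organoids of 3 mice and were counted as independent, so these p-values do not measure the spread between mice. The lowest adjusted p of any region was 0.114 by site, at the smallest p the test can give (0.00216), so no region could pass. The lowest keratin value was at the region 10132 bp downstream of Krt18, in 5 proximal and 1 distal library (exact p = 0.0801, adjusted p = 0.663). When each list was limited to its 5608 strongest peaks, 12 keratin regions were left in at least 2 libraries, of which 4 were listed in more proximal libraries, 2 in fewer and 6 in equally many (37.4% of all regions in more proximal libraries).

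Counted as peaks, the keratin windows held 15, 15 and 13 in proximal WENR-plus and 15, 9 and 12 in proximal WENR-minus. They held 5, 12 and 8 in distal WENR-plus and 8, 5 and 11 in distal WENR-minus. The proximal WENR-plus libraries all exceeded the distal WENR-plus libraries, with means of 14.3 ± 1.2 and 8.3 ± 3.5 (SD, n = 3; two-sided exact permutation p = 0.1, the smallest that 3 against 3 allows). In WENR-minus the means were 12.0 ± 3.0 and 8.0 ± 3.0 (exact permutation p = 0.2). WENR-plus and WENR-minus differed by 2.33 peaks in proximal (exact permutation p = 0.4) and 0.333 in distal organoids (exact permutation p = 1). Without the libraries numbered 2, the distal difference was -3. Per 1000 listed peaks the site order turned, with 0.593 in proximal and 1.00 in distal WENR-plus (exact permutation p = 0.3), and with lists of equal length the means were 7.67 and 6.67 (exact permutation p = 0.7). Of the 13 keratin regions listed in 2 to 11 libraries, 12 had a longer median list among the libraries with the region than among those without. Longer lists hold more regions of any kind, and the same share over all regions was not computed, so this count is not particular to keratins.

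**Figure D5:**
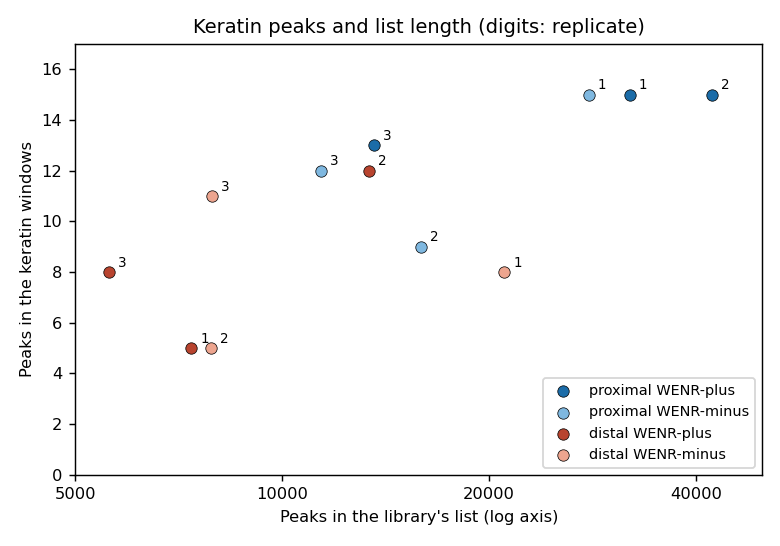
Number of peaks in the keratin windows against the number of peaks in the library's list (log axis), with 1 point per library, colours for the 4 groups and digits for replicates. The 3 libraries with 15 keratin peaks have lists of 27921 to 42192 peaks, and the 2 libraries with 5 have lists of 7378 and 7895.

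The other keratin genes had fewer regions. Of the 47 other protein-coding keratins of the annotation, 19 had a peak of any library in their window and 28 had none, against 5 and 1 of the 6 members. Their median number of regions was 0 and the highest 3, against a median of 4 and a highest of 8 among the members. Over all protein-coding genes the median was 1, and 33.6% had no peak. The windows of Krt12, a keratin of the cornea, and Krt15, a keratin of basal cells of stratified epithelia, held a region listed in all 12 libraries, but these were the Krt20 intron and the near Krt19 region, which lie 14.6 kb and 15.3 kb from their start sites and nearer to Krt20 and Krt19. Keratin genes lie in clusters, so windows of neighbours share peaks.

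Among 8 genes for linkers of keratin filaments and desmosomes, 5 had a peak in their window and 0 had a region listed in all 12 libraries. Over all protein-coding genes, 33.6% had no peak and 7.72% had a region listed in all 12, so these counts are not particular to the linkers. Plec, encoding the filament linker plectin, had 19 peaks in 4 regions, and Dsp, encoding the desmosomal linker desmoplakin, had 16 peaks in 5 regions. Eppk1 (epiplakin) had 14 peaks in 2 regions, Jup (plakoglobin) 6 in 2 and Pkp2 (plakophilin 2) 4 in 1. Evpl, Ppl and Pkp3 had no peak.

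Of 278 shared regions within 3 kb of a protein-coding start site, 5 had the profile most like that of the Krt20 intron over the 12 libraries in centred log2 fold enrichment. They lay at Ppp1r2, an inhibitor of protein phosphatase 1 (Pearson r = 0.88), at Car1, the carbonic anhydrase of colonocytes, with a region 1331 bp (r = 0.81) and another 1941 bp (r = 0.77) from a start site, at Uhrf1bp1l (r = 0.74) and at Prss23, a serine protease (r = 0.69). The median r of the Krt20 intron with all other shared regions was -0.01. These are the highest of many values over the same 12 libraries and are a description of likeness.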

How the data were processed

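Cdx2 ChIPmentation, in which a transposase adds the sequencing adapters to immunoprecipitated chromatin, was run on 12 libraries with 12 inputs. Per the study's methods, with versions from the submitters' processing notes, the authors trimmed reads (Trimmomatic 0.39), aligned them to mm10 (Bowtie2 2.4.5), removed duplicates (SAMtools 1.13) and called peaks per library against the matched input (MACS2 2.2.7.1, q-value limit 0.01). The study's own software list gives other releases of Bowtie2 and SAMtools. The deposited lists give for each peak a fold enrichment (a ratio over the input background), the −log10 p and −log10 q, and a score that is the −log10 q times 10, cut to a whole number by the authors' caller. Since each value was made against the library's own depth and input, the main fit used centred values. Fold enrichments before centring are given as a description. Input files and read counts were not used here.

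Only peaks of the assembled chromosomes were used, which left out 1024. Peaks overlapping by at least 1 bp were merged into regions, and a library with several peaks in a region entered with the one of highest fold enrichment. Group differences were fitted with limma 3.58.1 (R 4.3.3) on centred log2 fold enrichment with a mean per group over all 12 libraries, Benjamini-Hochberg adjusted over 2079 regions at a threshold of 0.05. The study compared read counts, which needs the reads. Peak numbers were compared by exact permutation and calling by Fisher's exact test (scipy 1.17.1). The fit was tested on simulated data. Motif words were searched within 50 bp of summits.

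The members, gene lists and tests were chosen with earlier results of these data known. Values per library are given for regions listed in all 12 libraries and, for a gene without one, for its most frequent region. Other genes are named where they are nearer to a region, are in the keratin or linker lists, or are among the 5 most like the Krt20 intron. Deviations of same-numbered libraries had an r of 0.12 to 0.57 over 2079 regions in the proximal medium comparison. The lowest r was smaller in every other comparison. In each comparison 4 of 6 libraries were closest to their own number. The check thus does not settle whether the numbers pair the libraries. The study reports the mouse groups as the main source of variation in Cdx2 binding. The check was run after the fits without a block had been seen. In the proximal medium comparison a replicate block changed no call, with a limma adjusted p of 0.369 at the Krt20 intron. Alternatives covered the normalization, list length, peak threshold, window size and leaving out each replicate number.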

Additional observations from a re-analysis of the deposited data

How the results depend on the processing

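The count of 3 keratin regions in all 12 libraries fell to 2 with windows of 10 kb and stayed at 3 in its other alternatives. The motif share rose from 43.8% to 68.8% with 100 bp to each side of the summit, as it did for all regions, and was 45.5% in regions of at least 6 libraries. The median percentile of the Krt20 intron was 98.6 when taken from −log10 p. A replicate block raised the called keratin regions from 0 to 1 between sites in WENR-plus and between media in distal organoids, each time the Krt20 intron (adjusted p = 0.0470 and 0.0210). In these comparisons the same-number r was 0.03 to 0.47 and -0.01 to 0.38, with 4 of 6 libraries closest to their own number. Whether the numbers pair the libraries is not settled by these values. The block changed no other keratin call. It raised all calls from 129 to 255 and 62 to 198 between sites, and from 0 to 24 between media in distal organoids. Quantile normalization also gave 1 in the distal medium comparison, and leaving out 1 replicate number gave 0 to 1 in both. Without the libraries numbered 3 the Krt20 difference between media was -1.49, and the adjusted p over all alternatives ran from 0.0210 to 0.699. Between sites in WENR-plus it ran from 0.0452 to 0.492. Site calls over all regions (WENR-plus, WENR-minus) fell to 58 and 32 with quantile normalization, to 28 and 4 on percentiles and to 0 and 0 without the libraries numbered 1 or 2, and those in WENR-minus rose to 123 with −log10 p and to 121 with regions of at least 10 libraries. Proximal was higher in 68 of 129 calls in WENR-plus and 46 of 62 in WENR-minus, against 39 of 58 with quantile normalization in WENR-plus and 28 of 28 and 4 of 4 on percentiles. Distal medium calls were 17 with quantile normalization, 15 on percentiles and 2 without the libraries numbered 3. On percentiles the median of all regions was itself shifted by 10.1 in WENR-plus.

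Per 1000 listed peaks the differences in keratin peaks turned to -0.407 and -0.0839 between sites (WENR-plus, WENR-minus) and -0.124 between media in proximal organoids. Leaving out a number gave -3 to 2 in the distal medium comparison. Small Krt19 and Krt20 differences that no test called changed sign. Between sites in WENR-minus, the near Krt19 region gave 4.70 percentile points, 6.9e-05 after quantile normalization and -0.196 to 0.0719 when a number was left out, and the Krt20 intron gave -0.125 to 0.0529. Between media in distal organoids, the near Krt19 region gave -4.01 percentile points and -0.0580 to 0.244 when a number was left out, and the far one -4.12 percentile points. The causes were not tested. The lists hold no depth, the study's aligned read totals were not used, and 3 libraries a group limit every comparison.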
